A study of Mus musculus with 22 samples.

Results

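The transcripts of 6 genes that cut peptides for MHC class I molecules or load them, Psmb8, Psmb9, Tap1, Tap2, Tapbp and Calr, were followed in G-MDSCs, granulocytic suppressor cells of the myeloid lineage, from mouse mammary tumours. They were taken by name from a panel of 655 endogenous genes counted with NanoString probes, and all 6 passed the filter on background that left 420 genes for testing. The tumours grew in the fat pad of female mice of the neu-N line (FVB-Neu-N), which carry a rat neu transgene, 7 to 8 weeks old, from 50000 implanted NT2.5 cells, a line derived from a mammary tumour of such mice. Mice were treated for 3 weeks, starting on day 3 after the cells were placed.

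The 22 samples fell into 5 groups. Entinostat, which inhibits class I histone deacetylases, was given by mouth alone at 5 mg/kg daily (4 samples), with anti-PD-1 (4 samples), with anti-CTLA-4 (4 samples), or with both antibodies, called the triple combination here (4 samples). Each antibody, which blocks a checkpoint receptor of T cells, was given at 100 µg per mouse 2 times a week. Vehicle animals (6 samples) received methylcellulose and isotype antibodies per the protocol, while the sample descriptions name PBS and methylcellulose. The checkpoint antibodies were never given without entinostat. The protocol mentions studies with and without anti-HER2 and does not say which applies to these samples. Nothing in the labels ties a sample to an animal of its own, so the p-values measure the spread between samples, which may be technical.

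MHC class I molecules show fragments of the cell's own proteins to CD8 T cells. The immunoproteasome, in which Psmb8 (LMP7) and Psmb9 (LMP2) replace catalytic subunits of the standard proteasome, cuts proteins into peptides that suit class I grooves. Tap1 and Tap2 together form the pump that moves those peptides into the endoplasmic reticulum. There tapasin (Tapbp) bridges the pump and the empty class I molecule, and calreticulin (Calr), a calcium-binding chaperone of many glycoproteins, holds the class I heavy chain. Interferon gamma is a well known inducer of the immunoproteasome subunits and of the transporter.

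Barcode counts per sample, recovered from the deposited values, were lowest in triple combination sample 2 (23296), highest in sample 1 of entinostat plus anti-CTLA-4 (443871) and 179363 at the median. In triple combination sample 2 a single count was worth 9.78 normalized counts and the negative controls averaged 28.1 normalized counts, against 1.96 to 16.5 in the other 21 samples. By lane, triple combination sample a lay among vehicle samples on cartridge 1 and vehicle sample 3 beside triple combination samples on cartridge 2, so results that rest on them are also given without both. Ly6g, the transcript of the antigen used to select the cells, averaged 4.37 to 19.2 normalized counts by group, below the background limit of 29.3. The summed level of 15 neutrophil markers ran from 21250 to 41219 with entinostat alone, 23703 to 31388 with anti-PD-1 added, 3539 to 22331 with anti-CTLA-4 added, 15363 to 19607 in the triple combination and 5890 to 25014 in vehicle. The sum of 5 pan-leukocyte markers ran from 3310 to 4976, 3539 to 4667, 614 to 3065 and 1748 to 3090 in the same 4 treated groups, and from 841 to 3707 in vehicle. All 11 tested neutrophil markers and all 5 leukocyte markers were higher with entinostat alone than in vehicle (limma, adjusted p below 0.05). Cdh1, the 1 epithelial marker measured of 14 listed, ran from 717 to 882 with entinostat alone, 820 to 918 with anti-PD-1 added, 764 to 1310 with anti-CTLA-4 added, 841 to 1162 in the triple combination and 783 to 1253 in vehicle. Both lymphoid markers measured, Ms4a1 and Nkg7, summed to 2 to 48.9 in any sample. Over all samples, 11 monocyte and macrophage markers summed to 465 to 3785 and 7 dendritic markers to 83.5 to 1134. The sum of 6 fibroblast and matrix markers was 969 to 2233, and that of 3 endothelial markers 19.5 to 668. In bulk RNA, fewer cells of a type and less RNA per cell cannot be told apart, and the part of cell makeup in the results below was not tested.

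A single transcript of the 6 passed the test in a single comparison. Calr was lower with entinostat alone than in vehicle, and no member was called when an antibody was added to entinostat, either against vehicle or against entinostat alone. Over all genes, 40.0% of the 420 tested were called between entinostat alone and vehicle, and 3.81% were called lower, beside 1 of the 6 members. Entinostat plus anti-PD-1 against vehicle called 21.9% of genes and 0 members, and 48.3% and 0 members were called for entinostat plus anti-CTLA-4 against entinostat alone. Entinostat plus anti-CTLA-4 against entinostat plus anti-PD-1 called 31.0% of genes and 0 members. The other comparisons called 0.0% of genes: entinostat plus anti-CTLA-4 and the triple combination against vehicle, entinostat plus anti-PD-1 and the triple combination against entinostat alone, and the triple combination against either single antibody combination. The moderated F test of any difference among the 5 groups called 33.1% of genes and no member, with Psmb9 nearest (F = 3.23, adjusted p = 0.086). The effect of adding both antibodies beyond the sum of their separate effects, tested as an interaction, was not called for any member, with Tap1 at 0.77 ± 0.40 on the log2 scale (SE, adjusted p = 0.257).

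**Figure D1:**
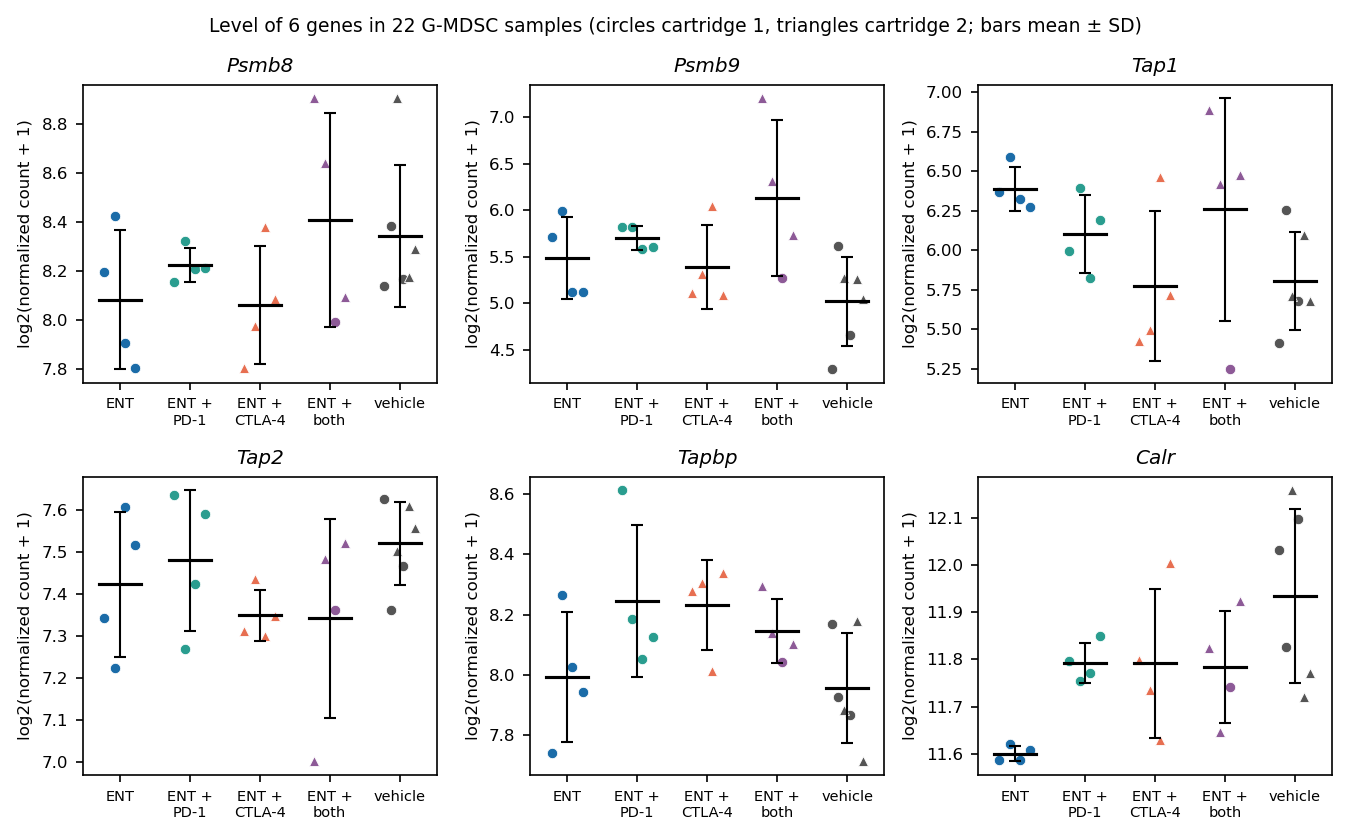
Level of each gene, as log2 of the normalized count plus 1, in every sample of the 5 groups (ENT, entinostat; both, anti-PD-1 and anti-CTLA-4). Circles are samples on cartridge 1, triangles on cartridge 2, and bars show the mean and SD. The 4 entinostat samples lie at the bottom of the Calr panel, between 3072 and 3149 normalized counts, and triple combination sample 2 is the top point for Psmb9 and Tap1.

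Of the proteasome subunits, Psmb8 showed no called difference. It read 292, 343, 239 and 223 normalized counts with entinostat alone, 284, 320, 295 and 295 with anti-PD-1 added, 332, 223, 271 and 251 with anti-CTLA-4 added, 254, 272, 479 and 399 in the triple combination, and 282 at the lowest, 300 at the median and 479 at the highest in vehicle. Every treated group overlapped vehicle, and the spread within the triple combination was the widest. The mean was 274 ± 54.9 with entinostat alone (SD, n = 4) and 330 ± 75.3 in vehicle (SD, n = 6). The log2 fold change was -0.26 ± 0.19 (SE; adjusted p = 0.266 by limma), and -0.15 without vehicle sample 3, which read 479 (adjusted p = 0.488). The group means ordered as triple combination, vehicle, entinostat plus anti-PD-1, entinostat alone, entinostat plus anti-CTLA-4, and no neighbours in that order were told apart by the test.

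Psmb9, the other inducible subunit, was the most variable member and the one nearest background. It read 51.4, 62.7, 33.9 and 33.7 normalized counts with entinostat alone, 55.4, 55.5, 47.0 and 47.6 with anti-PD-1 added, 65.0, 33.6, 33.0 and 38.7 with anti-CTLA-4 added, and 37.5, 52.4, 147 and 78.5 in the triple combination. Vehicle ran from 18.6 through a median of 34.6 to 48.2. All 4 samples of each treated group lay above the vehicle mean on the log2 scale (5.03; 33.0 ± 10.6 as normalized counts, SD, n = 6), yet each treated group overlapped vehicle. Background was not subtracted: negative controls averaged 13.41 and 14.05 normalized counts in entinostat samples 3 and 4, and 4.66 to 7.04 in vehicle. Of 420 tested genes, 312 had a mean above vehicle with entinostat alone. With anti-PD-1 added 295 did, with anti-CTLA-4 added 117 and in the triple combination 315. How many had all 4 samples above the vehicle mean was not counted. The value of 147 rests on 15 barcode counts, with an exact Poisson 95% interval of 82.1 to 242 normalized counts that covers counting error only. Of the 22 samples, 2 read below the background limit, vehicle samples 1 (18.6) and 4 (24.3), both on cartridge 1. Against vehicle the log2 fold change was 1.11 ± 0.32 in the triple combination (limma adjusted p = 0.281, 95% interval 0.44 to 1.78), 0.68 with anti-PD-1 added (adjusted p = 0.134), 0.46 with entinostat alone (adjusted p = 0.249) and 0.36 with anti-CTLA-4 added (adjusted p = 0.96). With vehicle 3 and triple combination sample a left out, the triple combination value was 1.45 (adjusted p = 0.047), without sample a alone 1.40 (adjusted p = 0.0442), and without sample 2 it was 0.75 (adjusted p = 0.742). With the numbered samples alone, an alternative chosen after seeing the data, it was 1.80 (adjusted p = 0.00872). That fit keeps only samples 2 and 4 of the triple combination, and sample 2 holds the value of 147. Within cartridge 2 the triple combination value was 1.23 (adjusted p = 0.351). Against entinostat plus anti-CTLA-4 the triple combination gave 0.74 ± 0.35 (adjusted p = 0.18).

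Tap1 and Tap2, the 2 parts of the peptide transporter, did not vary together, with r = -0.36 between them over 22 samples. Without triple combination sample 2, where they rest on 12 and 13 barcode counts, r was -0.14. Tap1 read 81.5, 95.2, 79.0 and 76.5 normalized counts with entinostat alone, 62.9, 83.2, 55.6 and 72.1 with anti-PD-1 added, 87.2, 42.0, 51.6 and 44.2 with anti-CTLA-4 added, and 37.0, 87.9, 117 and 84.7 in the triple combination. In vehicle it ran from 41.6 through a median of 50.9 to 75.2. All 4 entinostat samples lay above all 6 vehicle samples, with 76.5 as the lowest entinostat value and 75.2 as the highest vehicle value, a separation that 17.1% of tested genes showed in either direction, while 3 of the 4 triple combination samples also lay above vehicle and sample a lay below it. The values of 76.5 and 75.2 rest on 34 and 64 barcode counts, with overlapping exact Poisson 95% intervals of 52.9 to 107 and 57.9 to 96.1. Negative controls, not subtracted from the Tap1 values, averaged 7.31 to 16.5 normalized counts in the entinostat samples and 4.66 to 7.04 in vehicle. The mean was 83.0 ± 8.34 with entinostat alone (SD, n = 4) and 56.1 ± 12.6 in vehicle (SD, n = 6). The log2 fold change was 0.58 ± 0.26 (SE), with a limma adjusted p of 0.0823. With the negative-control mean subtracted it was 0.51 (limma adjusted p = 0.124). Other scalings gave 0.042 with median centring (adjusted p = 0.861), -0.056 with quantile normalization (adjusted p = 0.815) and -0.11 with edgeR and TMM (adjusted p = 0.663). In the deposited scaling it was 0.61 within cartridge 1 (adjusted p = 0.0528) and 0.82 with cartridge as a block (adjusted p = 0.0285), and 0.56 with vehicle 3 and triple combination sample a left out (adjusted p = 0.0445). It also passed the test at 0.67 without vehicle sample 2 (adjusted p = 0.0449), at 0.58 without triple combination sample a (adjusted p = 0.03) and at 0.58 with the 2 groups fitted alone (adjusted p = 0.0306). The log2 fold change of entinostat plus anti-CTLA-4 against entinostat alone was -0.61 ± 0.29 (adjusted p = 0.0823), and -1.09 with cartridge as a block (adjusted p = 0.0299). It passed the test when sample a of either the triple combination or the anti-CTLA-4 group was left out. These 2 groups lay on different cartridges, so no value within a cartridge could be had. The cartridge block rests on vehicle and the triple combination, which lay on both cartridges. Among their samples are vehicle 3 and triple combination sample a.

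Tap2 read 161, 149, 194 and 182 normalized counts with entinostat alone, 198, 153, 171 and 192 with anti-PD-1 added, 157, 158, 162 and 172 with anti-CTLA-4 added, 163, 183, 127 and 178 in the triple combination, and 163 to 197 in vehicle with a median of 184. The lowest value, 127, was triple combination sample 2 and rests on 13 counts. Its log2 fold changes against vehicle ran from -0.18 to -0.04, none called, and only 18 of 420 tested genes had a smaller spread within groups.

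Tapbp, the bridging protein of the loading complex, read 213, 306, 260 and 245 normalized counts with entinostat alone, 391, 290, 265 and 278 with anti-PD-1 added, 257, 310, 322 and 315 with anti-CTLA-4 added, 263, 274, 313 and 281 in the triple combination, and 209 to 289 in vehicle with a median of 239. The 3 groups that received an antibody had all 4 of their samples above the vehicle mean of 249 ± 32.2 (SD, n = 6), while entinostat alone had 2 of 4. How many tested genes showed this was not counted. The log2 fold change against vehicle was 0.29 with anti-PD-1 added (adjusted p = 0.133), 0.28 with anti-CTLA-4 added (adjusted p = 0.96), 0.19 in the triple combination (adjusted p = 0.415) and 0.04 with entinostat alone (adjusted p = 0.826). All 3 antibody groups overlapped vehicle.

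Calr, the chaperone, gave the called difference. It read 3072, 3149, 3075 and 3119 normalized counts with entinostat alone, 3555, 3454, 3493 and 3690 with anti-PD-1 added, 3167, 3562, 4109 and 3410 with anti-CTLA-4 added, and 3425, 3882, 3627 and 3201 in the triple combination. Vehicle ran from 3371 through a median of 3911 to 4572. The 4 entinostat samples lay below every sample of the other 4 groups. The highest of them, 3149 in sample 2, had an exact Poisson 95% interval of 2984 to 3321 normalized counts. That interval overlapped those of 3167 in entinostat plus anti-CTLA-4 sample a (3034 to 3304) and 3201 in triple combination sample 4 (3044 to 3365). No overlap between entinostat alone and vehicle, in either direction, was shown by 17.1% of tested genes. The share lying below all 4 other groups was not counted. The mean was 3104 ± 36.9 with entinostat alone (SD, n = 4) and 3941 ± 506 in vehicle (SD, n = 6). The log2 fold change was -0.34 ± 0.11 (SE; adjusted p = 0.0212 by limma, 95% interval -0.56 to -0.11). Within cartridge 1 it was -0.39 (adjusted p = 0.0356), and with vehicle 3 and triple combination sample a left out it was -0.29 (adjusted p = 0.0456). The call was lost without entinostat sample 3 (adjusted p = 0.0597), without the background filter (adjusted p = 0.0572) and with the 2 groups fitted alone (adjusted p = 0.0677).

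Calr in the groups that received an antibody lay nearer vehicle. The log2 fold change against vehicle was -0.14 with anti-PD-1 added (adjusted p = 0.369), -0.14 with anti-CTLA-4 added (adjusted p = 0.96) and -0.15 in the triple combination (adjusted p = 0.415). Against entinostat alone, all 4 samples of each of these 3 groups were higher without overlap, which 1.19%, 2.62% and 2.14% of tested genes showed for anti-PD-1, anti-CTLA-4 and both added. The test did not call these differences: 0.19 ± 0.12 (adjusted p = 0.971), 0.19 ± 0.12 (adjusted p = 0.177) and 0.18 ± 0.12 (adjusted p = 0.43). Only the anti-PD-1 group of these 3 lay wholly on the cartridge of the entinostat samples. The lowest value of each of these 3 groups had a Poisson interval that overlapped that of the highest entinostat value. Separation from vehicle in either direction was shown by 9.52% of genes with anti-PD-1 added, 0.238% with anti-CTLA-4 added and 1.43% in the triple combination, and by 0 members in each. Cdh1, the epithelial marker, was also lower with entinostat alone than in vehicle (log2 fold change -0.41, limma adjusted p = 0.0418). Across the 22 samples, which share the scaling to a sample, Calr and Cdh1 correlated at r = 0.53. With the leukocyte marker Ptprc r was -0.48, with the neutrophil marker S100a9 -0.52 and with the interferon gene Irf1 -0.55. The part of epithelial or leukocyte RNA in the Calr difference was not tested.

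From highest to lowest group mean, Psmb9 ran triple combination, the anti-PD-1 combination, entinostat alone, the anti-CTLA-4 combination, vehicle. Tap1 ran entinostat alone, triple combination, the anti-PD-1 combination, vehicle, the anti-CTLA-4 combination. Tap2 ran vehicle, the anti-PD-1 combination, entinostat alone, the anti-CTLA-4 combination, triple combination, although its last 2 groups averaged 162 and 163 normalized counts. Tapbp ran the anti-PD-1 combination, the anti-CTLA-4 combination, triple combination, entinostat alone, vehicle. Calr ran vehicle, the anti-PD-1 combination, the anti-CTLA-4 combination, triple combination, entinostat alone. The orders are of mean log2 levels, and no 2 neighbours in any of them differed by the limma test.

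**Figure D2:**
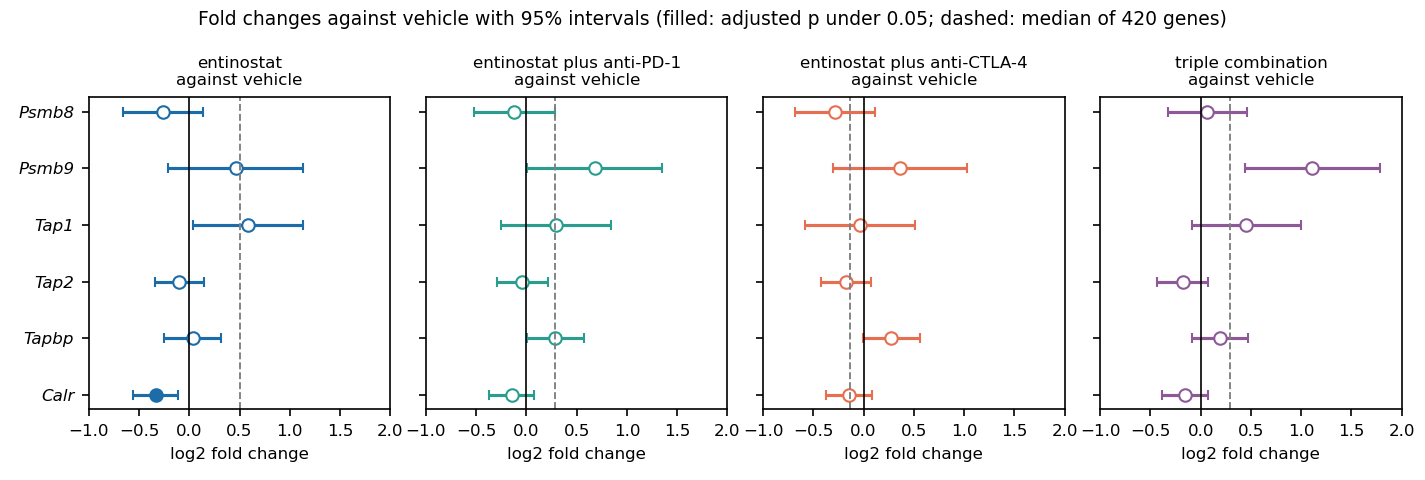
Log2 fold change against vehicle with its 95% interval for the 6 genes in each treated group. Filled points passed the test (adjusted p below 0.05), and the dashed line is the median of the 420 tested genes, 0.50 for entinostat alone. Calr with entinostat alone is the 1 filled point, at -0.34.

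Without adjustment for the number of genes, 2 members had p below 0.05 for entinostat alone against vehicle (Calr and Tap1), as did 51.4% of genes. For entinostat plus anti-PD-1 these were Psmb9 and Tapbp, with 36.0% of genes. Entinostat plus anti-CTLA-4 had 0 members and 1.43% of genes, and the triple combination had Psmb9 and 14.0% of genes. Tap1 was the 1 member for entinostat plus anti-CTLA-4 against entinostat alone, beside 56.4% of genes, and Psmb9 for the triple combination against entinostat plus anti-CTLA-4, beside 27.4%. The other 4 pairs of groups had 0 members with an unadjusted p below 0.05. Such a p was shown by 1.67% of genes for entinostat plus anti-PD-1 and 12.6% for the triple combination against entinostat alone, and against entinostat plus anti-PD-1 by 7.86% for the triple combination and 38.6% for entinostat plus anti-CTLA-4.

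With edgeR on the recovered counts and the deposited scaling, Calr was again the 1 member called with entinostat alone against vehicle, beside 36.0% of genes, and 0 members were called in the other 9 comparisons of pairs. Among those, edgeR called 7.86% of genes for entinostat plus anti-PD-1 against vehicle, 41.0% for entinostat plus anti-CTLA-4 against entinostat alone, 16.4% for entinostat plus anti-CTLA-4 against entinostat plus anti-PD-1 and 0.0% in the other 6.

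Which members were called depended on how the samples were scaled. For entinostat alone against vehicle the median log2 fold change was -0.03 over the 6 members and 0.50 over all tested genes. For entinostat plus anti-CTLA-4 against entinostat alone it was -0.05 over the members and -0.67 over all tested genes. When each sample was centred on its median, which moves the all-gene median to -0.04 in the first comparison, Psmb8 (-0.80, adjusted p = 0.0055), Tap2 (-0.64, adjusted p = 0.0369) and Calr (-0.87, adjusted p = 0.0103) were lower with entinostat alone than in vehicle, beside 19.3% of genes called lower. All genes called then split as 95 higher and 81 lower, against 152 and 16 in the deposited scaling. In the second comparison the same centring called 5 members higher in entinostat plus anti-CTLA-4 than in entinostat alone, all but Tap1, beside 28.8% of genes called higher, with Tapbp at 0.96 (adjusted p = 0.00765) and Calr at 0.91 (adjusted p = 0.00699). All genes called split as 121 higher and 104 lower, against 24 and 179 in the deposited scaling. Calr was lower with entinostat alone under all 5 scalings, whereas Psmb9 changed sign with median centring, quantile normalization and TMM, and Tap1 with quantile normalization and TMM.

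**Figure D3:**
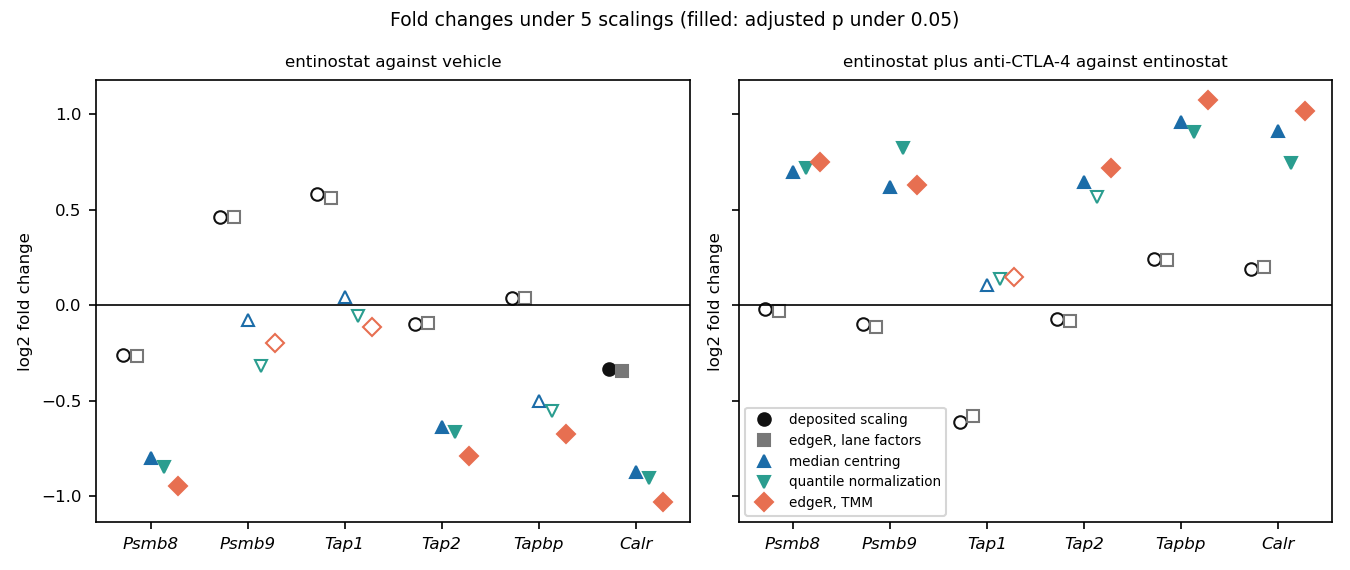
Log2 fold change of the 6 genes under 5 scalings of the same samples, for entinostat alone against vehicle (left) and entinostat plus anti-CTLA-4 against entinostat alone (right). Filled symbols passed the test. In the left panel Calr is below 0 and filled under every scaling, from -0.34 to -1.03, and in the right panel all members but Tap1 passed the test with median centring.

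The members varied together in part. Psmb9 and Tap1 correlated at r = 0.76 over 22 samples (0.70 without triple combination sample 2), Psmb8 and Psmb9 at 0.60 (0.42 without it), and Psmb9 and Tap2 at -0.62 (-0.38 without it). Between Tapbp and Calr r was 0.02. The genes whose pattern was most like the mean of the members were H2-DMa (r = 0.75), Ear3 (0.69), Tnfsf9 (0.69), Irf5 (0.66) and Ndc80 (0.63). Psmb8 lay nearest to H2-DMa (0.81) and H2-Ab1 (0.77), both of the class II pathway, Psmb9 to Arhgef6 (0.78) and Ddr2 (0.77), Tap1 to Ikbke (0.87) and Cd274 (0.87), Tap2 to Ndufa7 (0.66) and Lif (0.61), Tapbp to Grn (0.52) and C3 (0.49), and Calr to S100a10 (0.74) and Tuba4a (0.70). Tap1 also correlated with Irf1 at 0.84, with the leukocyte marker Ptprc at 0.72 and with Cdh1 at -0.73. All of these are descriptions over samples that share groups and scaling.

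**Figure D4:**
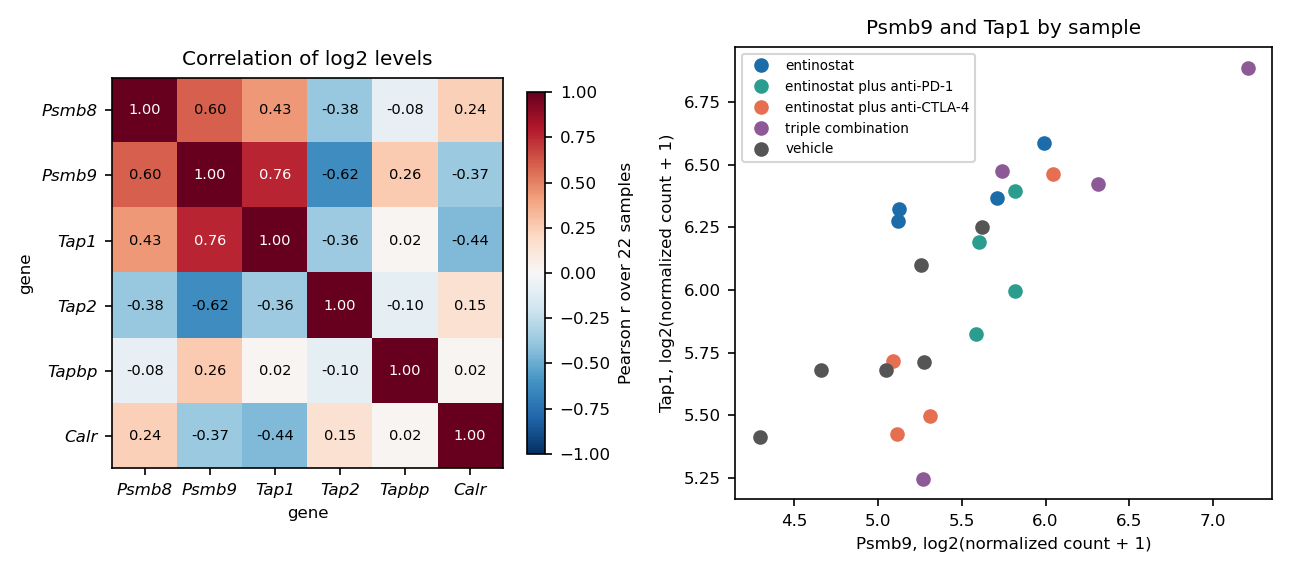
Left, Pearson correlation of the log2 levels of the 6 genes over 22 samples. Right, Tap1 against Psmb9 in each sample, coloured by group. The pair reaches r = 0.76, and the upper right point is triple combination sample 2.

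Of the neighbouring pathway, 1 of 20 listed class I molecules and chaperones was on the panel (Cd1d1, not tested), and 1 of 19 proteasome and activator genes, Psme2, a part of the PA28 activator, at 941 ± 96.6 normalized counts with entinostat alone (SD, n = 4) and 1065 ± 223 in vehicle (SD, n = 6). Its log2 fold change was -0.16 ± 0.14 (adjusted p = 0.383). Of 8 tested interferon genes, 4 rose with entinostat alone against vehicle, among them Ifngr1, a chain of the interferon gamma receptor (0.73 ± 0.20, adjusted p = 0.0106), Irf1, a transcription factor (0.97 ± 0.27, adjusted p = 0.0119), and Isg15, a ubiquitin-like protein (0.91 ± 0.29, adjusted p = 0.0204). Of all tested genes, 36.2% were called higher in this comparison. With anti-PD-1 added 2 of the 8 rose, Ifngr1 and Isg15, beside 20.5% of genes, and 0 did with anti-CTLA-4 added or in the triple combination. Against entinostat alone, 6 of the 8 fell with anti-CTLA-4 added, among them Cd274 (-1.98 ± 0.71, adjusted p = 0.0302), beside 42.6% of genes called lower. In the same comparison all 11 tested neutrophil markers and all 5 leukocyte markers were called lower and Cdh1 was called higher (0.46, limma adjusted p = 0.0348). The part of these markers in the interferon and member values was not tested. Nor was that of the cartridge, which differs between the 2 groups. These interferon calls depended on scaling as well: after median centring 1 of the 8 was called for entinostat alone against vehicle (Irf1, 0.43, adjusted p = 0.0423) and 0 for entinostat plus anti-CTLA-4 against entinostat alone, and quantile normalization and TMM called 0 in both. Of 5 tested class II genes, 0 were called against vehicle, and 1, the protease gene Ctss, fell with anti-CTLA-4 added against entinostat alone (-1.68 ± 0.64, limma adjusted p = 0.0407).

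The chromosomal setting differs between members: 5 lie on mouse chromosome 17, in the MHC (GRCm38.p6), and 4 of them, Psmb9, Tap1, Psmb8 and Tap2, within 34292 bases (34182030 to 34216321). Psmb9 and Tap1 lie head to head with 225 bases between them, and their promoter windows, 250 bases before to 50 after each start, share 275 bases on opposite strands. Calr lies on chromosome 8 (84842088 to 84846931). RefSeq windows were on hand for 5 of the members. The window of Tap1 (chr17:34187306-34187605, plus strand), shown because Psmb9 and Tap1 correlated most closely, Psmb8 (chr17:34197945-34198244, plus strand), the 1 window with a match to the GAS element (interferon gamma-activated site), and Calr (chr8:84846882-84847181, minus strand), the member with the call, are printed 5′ to 3′ with motif matches in capitals.

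Tap1: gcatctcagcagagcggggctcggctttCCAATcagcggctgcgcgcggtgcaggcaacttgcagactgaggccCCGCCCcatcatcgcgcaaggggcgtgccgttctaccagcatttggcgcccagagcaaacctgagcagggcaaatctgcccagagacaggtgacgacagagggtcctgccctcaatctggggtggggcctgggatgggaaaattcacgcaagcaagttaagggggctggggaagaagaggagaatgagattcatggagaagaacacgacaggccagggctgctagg

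Psmb8: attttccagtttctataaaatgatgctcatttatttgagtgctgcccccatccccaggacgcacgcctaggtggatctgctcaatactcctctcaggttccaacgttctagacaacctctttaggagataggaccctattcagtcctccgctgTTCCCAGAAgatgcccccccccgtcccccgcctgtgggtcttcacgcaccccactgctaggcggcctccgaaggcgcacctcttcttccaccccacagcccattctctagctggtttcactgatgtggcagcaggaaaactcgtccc

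Calr: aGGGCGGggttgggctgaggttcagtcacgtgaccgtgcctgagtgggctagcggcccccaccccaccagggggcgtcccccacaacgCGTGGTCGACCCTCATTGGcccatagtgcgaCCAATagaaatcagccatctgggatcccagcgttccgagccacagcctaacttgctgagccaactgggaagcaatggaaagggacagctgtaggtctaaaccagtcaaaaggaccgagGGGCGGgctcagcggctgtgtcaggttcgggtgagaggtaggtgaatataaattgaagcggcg

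The motifs searched on both strands were GAS (TTCNNNGAA), the core of the interferon-stimulated response element (GAAANNGAAA), the CCAAT box (CCAAT), the GC box (GGGCGG) and the endoplasmic reticulum stress element (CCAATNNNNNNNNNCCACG), which holds a CCAAT box. They were found in 8.29%, 3.43%, 37.4%, 35.6% and 0.119% of 32817 windows. Psmb8 held TTCCCAGAA 97 to 89 bases before its start. The Calr window held the stress element on the opposite strand, 162 to 144 bases before the start, with 2 CCAAT boxes and 2 GC boxes. Tap1 and Psmb9 share a CCAAT box and a GC box. The interferon-stimulated core was matched in none of the 5 windows, which says only that those letters are not in them.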

How the data were processed

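Total RNA from the selected cells of 22 samples was counted on the NanoString nCounter system with a mouse myeloid panel, per the labels. The authors deposited a linear signal, normalized counts, and which steps normalized them is not given in the sources used. The gene values of each sample were whole multiples, within 0.1 count, of a step of 0.400 to 9.78, so that dividing by it recovered the barcode counts. Control rows are unscaled counts. Groups followed the sample titles. Column names that stood on 2 columns each are called samples a and b. The members and lists were chosen with earlier results of these data known.

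Values were taken as log2(normalized count + 1) and entered a limma fit (3.58.1, R 4.3.3) of 5 group means to the 22 samples, whose degrees of freedom were 17 residual and 2.14 prior. Genes with a group mean over a limit of 2 SD above the average negative control (29.3 normalized counts) were tested, 420 of 655, two-sided, with Benjamini-Hochberg adjustment over them and a threshold of 0.05. Named were the 6 members, genes of the pathway lists that were called or had the smallest p (up to 4 a list) for entinostat against vehicle, the 5 genes best correlated with the members' mean and the 2 best correlated with each member. Fold changes are on the log2(value + 1) scale, where the added 1 shrinks those of low genes. Background was not subtracted, and subtracting it can move a low gene as well. Tap1 with entinostat alone against vehicle went from 0.58 to 0.51. Alternatives were other scalings, edgeR 4.0.16 on the recovered counts, other filters and pseudocounts, cartridge and replicate blocks, and leaving out samples. The fit was tested on simulated data. Promoter windows and positions came from RefSeq (GRCm38.p6). The values of 1 gene of the interferon list are not reported here.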

Additional observations from a re-analysis of the deposited data

Results flagged for a closer look

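Psmb8 in vehicle sample 3 read 479 normalized counts, far above the other 5 vehicle samples (282 to 334), with a gap to its neighbour of 0.68 of the group's range. It was the 1 such value in 30 groups looked at, and about 1 in 20 groups meets this rule by chance. This sample is the one that lies beside triple combination samples by lane.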

How the results depend on the processing

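Of the 6 members, the number called for entinostat alone against vehicle was 1, and it was 0 without the background filter (22.4% of genes called), 3 with median centring, 3 with quantile normalization and 4 with edgeR and TMM (all called lower, beside 19.3%, 20.7% and 31.4% of genes called lower), 2 with a cartridge block (40.2%) and 2 with vehicle 3 and triple combination sample a left out (41.7%), and ranged from 0 to 2 when single samples were left out. Where the count was 0 in the deposited scaling, quantile normalization gave 2 and TMM 1 for entinostat plus anti-PD-1 against vehicle, called lower like 7.62% and 5.24% of genes. For entinostat plus anti-CTLA-4 against entinostat alone, median centring gave 5, quantile normalization 4 and TMM 5, called higher like 28.8%, 26.7% and 32.9% of genes, while the cartridge block gave 1 (Tap1) and leaving out those 2 samples 1 (Tap1), called lower like 36.9% and 45.8%, with 0 to 1 on leaving out single samples. The triple combination gave 1 against vehicle without those 2 samples (Psmb9, beside 2.27% of genes; 0 to 1 on leaving out single samples), 1 against entinostat alone with quantile normalization (0.714%), and 1 against entinostat plus anti-CTLA-4 without those 2 samples (11.6%; 0 to 2 on leaving out single samples). For any difference among the 5 groups, median centring gave 3, quantile normalization 3, TMM 5 and leaving out both samples 2, beside 34.0%, 33.8%, 43.1% and 40.6% of genes (0 to 2 on leaving out single samples). The causes of these changes were not tested.

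Samples of the same number did not deviate together at the median (r -0.07 over 24 pairs of same number and -0.05 over 76 of different number). The values gave no sign that the numbers pair the samples. They cannot exclude it, since r ran from -0.54 to 0.53 for the same number and from -0.72 to 0.66 for different numbers. With a replicate block the members called were 2 for entinostat alone against vehicle (29.9% of genes), 2 for the triple combination against vehicle (9.98%), Psmb9 at 1.71 (limma adjusted p = 0.0134) and Tap1, 1 for entinostat plus anti-CTLA-4 against entinostat alone (47.8%), 3 for the triple combination against entinostat plus anti-CTLA-4 (22.7%) and 2 for any difference (36.9%). The numbered samples without a block, an alternative chosen after seeing the data, gave the same counts beside 31.8%, 17.4%, 57.1%, 55.8% and 51.8% of genes, and 1 for entinostat plus anti-CTLA-4 against entinostat plus anti-PD-1 (40.6%). Both fits keep only samples 2 and 4 of the triple combination and samples 1 and 3 of entinostat plus anti-CTLA-4.

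Directions turned for uncalled members. Against vehicle with entinostat alone, Psmb9 was -0.078, -0.32 and -0.20 with median centring, quantile normalization and TMM, Tap1 was -0.056 and -0.11 with the last 2, and Tapbp was -0.50, -0.55 and -0.68 with the 3 (the TMM value called), -0.001 with negative controls subtracted, and -0.053 to 0.12 on leaving out samples. With anti-PD-1 added, Tap1 was -0.012, -0.11 and -0.10 and Tapbp -0.019, -0.16 and -0.12 under the same 3 scalings, Psmb8 was 0.048 with the cartridge block, and Tap2 ran from -0.092 to 0.029 on leaving out samples. With anti-CTLA-4 added, Tap1 was 0.15, 0.084 and 0.036 under the 3 scalings, 0.027 with negative controls subtracted, 0.011 without vehicle samples V1 and V2, and -0.26 to 0.086 on leaving out samples, while median centring gave Tap2 0.007 and Calr 0.036. In the triple combination, Psmb8 was -0.17, -0.11 and -0.28 under the 3 scalings, -0.02 with the cartridge block and -0.10 to 0.20 on leaving out samples, and Tapbp was -0.042, -0.054 and -0.15 under the 3 scalings. Counts limit Psmb9 and Tap1, which rest on 12 to 105 barcode counts a sample.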
